A study of Mus musculus with 6 samples.

Results

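The genes described here are the nuclear genes whose symbols begin with Uqcr, Cox4 to Cox8 or Atp5 in the deposited count tables. They encode most nuclear subunits of respiratory complex III (ubiquinol-cytochrome c reductase), complex IV (cytochrome c oxidase) and ATP synthase. The rule found 41 members among 20279 gene symbols: 8 for complex III, 16 for complex IV and 17 for ATP synthase. Between 37 and 41 of them were listed in a single library.

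The study compared ways of preparing single-cell cDNA for long-read (Nanopore) sequencing. Its 6 libraries carry the tissue label spleen, from female C57BL/6 mice of 10 weeks. No mutant allele or drug is named for any of them. There were 2 libraries per protocol. The modified 5′ libraries came from the 10x Genomics 5′ kit with 1 µl of 10 mM dNTP added at reverse transcription and again at cDNA amplification. Their extension times were 2 h in place of 45 min and 3 min in place of 1 min. The standard 5′ libraries used the same kit without these changes, and the 3′ libraries used the 3′ kit. The 5′ kit places the cell barcode at the end of the cDNA that corresponds to the start of the transcript, and the 3′ kit places it at the poly(A) end. The labels do not say whether replicates 1 and 2 came from separate mice. The p-values between protocols therefore measure the spread between these libraries, which may be technical. Those between T and B cells measure how the difference within a library varies over the 6 libraries. For replicate 1 the extraction text describes strained spleens and lysis of red cells. For replicate 2 it describes pancreatic islets and depletion of insulin cDNA, against the spleen label, and the series text speaks of islets as well.

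Only cells with 200 or more genes and a mitochondrial share up to 20% were used, which left between 861 and 4045 cells and between 365826 and 2474068 counts per library. Standard 5′ replicate 1 stood apart: 34.0% of its barcodes were kept, at a median of 332 counts per cell, against 78.3% to 89.9% and medians of 482.5 to 606 counts in the other libraries. The spleen label was checked with B and T cell markers; Cd79a, Cd79b, Ms4a1, Cd3d, Cd3e, Cd3g, Trac, Trbc1 and Trbc2 were counted in each library. Of 9 pancreas markers, 7 had counts in modified 5′ replicate 2, where they summed to 40.4 CPM (counts-per-million of the library's kept counts). In the other 5 libraries 1 of the 9 had counts, and Ins1, Ins2, Gcg, Sst, Iapp, Ppy, Cpa1 and Pnlip were at 0. Haemoglobin genes held 13.4% to 22.3% of all deposited counts in the replicate 1 libraries and 0.319% to 0.524% in the replicate 2 libraries. The extraction text also differs between replicates 1 and 2, so values within a replicate number are given beside those over both; each number holds 1 library of each protocol. Libraries shared at most 0.619% of the smaller library's barcodes.

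Complex III passes electrons from ubiquinol to cytochrome c, and complex IV passes them on to oxygen. Both pump protons across the inner mitochondrial membrane, and ATP synthase makes ATP as the protons flow back. All 3 assemblies combine many nuclear subunits with a few subunits encoded in mitochondrial DNA. Lymphocytes use this machinery at rest and enlarge it when they are activated.

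Members are known for promoters that hold sites of nuclear respiratory factor 1 (NRF1) and of ETS-family factors such as GABP, also called NRF2. The letters of such sites were searched in 300 bases around the start of each gene (250 before and 50 after), in the RefSeq promoter table of build GRCm38.p6, which matched 32 of the 41 members. The ETS letters CCGGAAG, on either strand, stood in 11 of 32 members (34.4%) and in 9.93% of all 27025 genes of the table. The NRF1 palindrome, GCGCA followed directly by TGCGC, stood in 4 of 32 (12.5%), against 1.07% of all genes, and AAGATGGCG, which YY1 binds, in 2 of 32 (6.25%), against 1.64%. The letters GGGCGG, bound by SP factors, stood in 34.4% of the members and in 38.2% of all genes. One promoter per complex is shown because these members recur below, from 200 to 26 bases before the RefSeq start site. Capitals mark the NRF1 or ETS letters.
Uqcr11, complex III, chr10:80406847-80407021, minus strand, ETS letters from base -66: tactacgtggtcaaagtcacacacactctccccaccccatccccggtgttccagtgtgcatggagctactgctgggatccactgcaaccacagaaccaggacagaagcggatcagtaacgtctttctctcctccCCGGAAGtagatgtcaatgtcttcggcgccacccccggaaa
Cox6a1, complex IV, chr5:115348984-115349158, minus strand, NRF1 letters from base -162: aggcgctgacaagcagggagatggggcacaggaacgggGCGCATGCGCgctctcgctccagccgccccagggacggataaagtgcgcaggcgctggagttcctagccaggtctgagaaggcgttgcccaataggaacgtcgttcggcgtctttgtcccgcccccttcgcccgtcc
Atp5e, ATP synthase, chr2:174464127-174464301, minus strand, ETS letters from base -102 as their reverse complement: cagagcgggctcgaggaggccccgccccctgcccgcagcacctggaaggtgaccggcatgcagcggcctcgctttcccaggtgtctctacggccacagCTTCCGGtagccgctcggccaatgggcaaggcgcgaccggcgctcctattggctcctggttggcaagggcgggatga
A match is only a run of letters; no binding was measured here.

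The members lie on 18 chromosomes and are mostly short. Their coding lengths run from 156 to 1659 nt with a median of 324 nt, and their transcripts, in GENCODE M21 on the same genome build, have a median of 625 nt. Complex IV members are the most uniform, at 189 to 516 nt of coding sequence, whereas complex III and ATP synthase each combine small membrane subunits with large catalytic or core subunits. For 24 of the 41 members at least 1 stretch of 31 bases also occurs in an annotated pseudogene. More than 50% of such stretches are shared with other genes for Atp5g1, Atp5g2, Atp5h, Atp5l, Atp5o, Cox7c and Uqcrb, so the counts of these 7 are uncertain. How the authors assigned such reads, and whether the counting used strand, is not given in the sources used here. Atp5o is a symbol of 2 overlapping GENCODE genes, and 14 members, Cox4i1 and Atp5o among them, overlap an annotated antisense gene.

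Summed over their members, complexes III and IV and ATP synthase were lowest in the 3′ libraries. Complex III members summed to 2553 and 2151 CPM in the modified 5′ libraries, 1457 and 1793 CPM in the standard 5′ libraries, and 1363 and 1224 CPM in the 3′ libraries (replicates 1 and 2). Complex IV members summed to 6098 and 5352 CPM in modified 5′, 4188 and 4798 CPM in standard 5′, and 2932 and 2746 CPM in 3′ libraries. ATP synthase members summed to 7365 and 6599 CPM in modified 5′, 5730 and 6498 CPM in standard 5′, and 3731 and 3967 CPM in 3′ libraries. No library of one protocol overlapped those of another in any of these sums. The mean sums of the standard 5′ libraries exceeded those of the 3′ libraries by 0.33, 0.66 and 0.67 on the log2 scale for complex III, complex IV and ATP synthase. The mean sums of the modified 5′ libraries exceeded those of the standard 5′ libraries by 0.53, 0.35 and 0.19. These sums use plain library totals; on totals scaled by the trimmed mean of M-values (TMM) the standard 5′ against 3′ differences became 0.72, 1.05 and 1.06. In sums over cells, more RNA per cell and more cells of a type that carries it cannot be told apart.

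**Figure D1:**
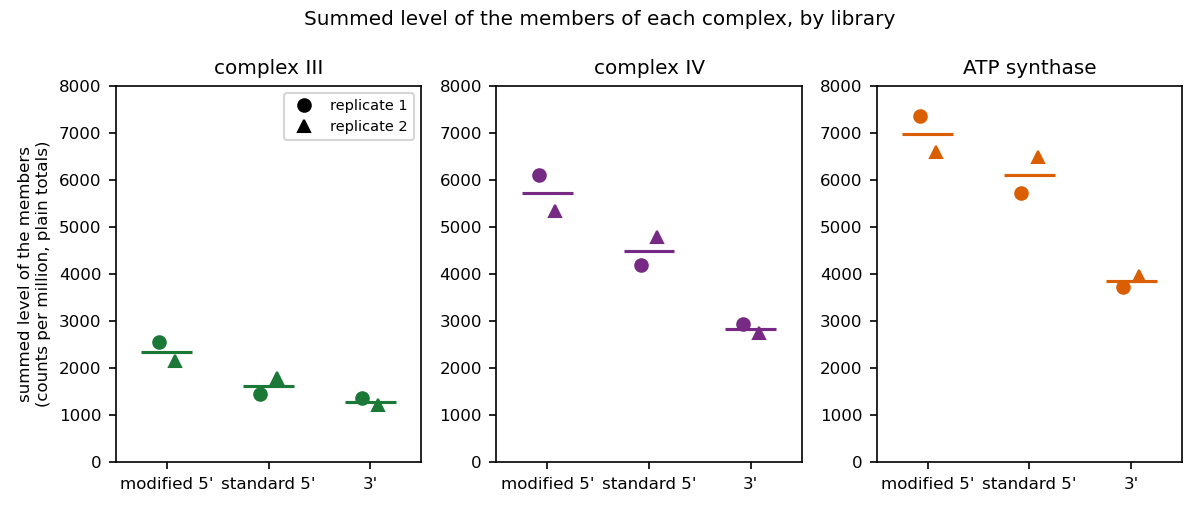
Summed level of the members of each complex in each library, in CPM. Circles are replicate 1, triangles replicate 2, and lines group means. In every panel both modified 5′ libraries lie above both standard 5′ libraries, and both 3′ libraries lie lowest.

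In the comparison of standard 5′ with 3′ libraries, which asks what capture at the other end of the transcript does to measured levels, the members were higher with the 5′ kit. Of 38 members that passed the filter on low counts (Cox4i2, Cox7a1 and Cox8b did not), 19 rose and 0 fell at an adjusted p under 0.05 in edgeR's quasi-likelihood test. The background was 12.5% of 11546 genes higher and 10.8% lower. The median log2 fold change was 0.74 over the 38 members and -0.01 over all genes tested. By assembly, 2 of 8 complex III members, 5 of 13 complex IV members and 12 of 17 ATP synthase members rose. Levels of single members here and below are CPM on TMM-scaled totals, and summed CPM are on plain totals.

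Cox4i1, the largest of the general nuclear subunits of complex IV, had the biggest difference among the members. It stood at 1306 and 1356 CPM in the standard 5′ libraries, against 146 and 102 CPM in the 3′ libraries, a log2 fold change of 3.43 ± 0.24 (SE, n = 2 libraries each; edgeR adjusted p = 0.000248). The gene lies at chr8:120668222-120674207 on the plus strand, with 5 exons in its annotated main transcript, and it overlaps the antisense gene Emc8. Within replicate 1 its log2 difference was 3.16 and within replicate 2 it was 3.72. Cox6a1, the general form of a subunit with a muscle counterpart, had 313 and 394 CPM in standard 5′ libraries, against 181 and 123 CPM in 3′ libraries (log2 fold change 1.23 ± 0.24, edgeR adjusted p = 0.00888). Cox5b, a matrix-side subunit, had 289 and 380 CPM in standard 5′ libraries, against 171 and 165 CPM in 3′ libraries (log2 fold change 1.00 ± 0.22). All 3 were named on condition that both standard 5′ libraries lay above both 3′ libraries. Cox8a and Cox5a also rose, with log2 fold changes of 0.82 ± 0.22 and 0.79 ± 0.20, and Cox6b1, Cox6c, Cox7a2, Cox7b and Cox7c did not pass the threshold. With the replicate block Cox6b1 and Cox6c passed (edgeR adjusted p = 0.0108 and 0.0234). Cox7c had the estimate nearest 0 in complex IV (0.08 ± 0.33), with a sign that turned when other barcodes or totals were used.

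In complex III 2 members passed the threshold, Uqcrc1 and Uqcrfs1. The core protein Uqcrc1 had 200 and 255 CPM in standard 5′ libraries, against 69.6 and 79.2 CPM in 3′ libraries (log2 fold change 1.62 ± 0.22, edgeR adjusted p = 0.00251). Uqcrfs1, the Rieske iron-sulphur subunit, had 270 and 260 CPM in standard 5′ libraries, against 93.0 and 111 CPM in 3′ libraries (log2 fold change 1.38 ± 0.22). Both genes were named on condition that their libraries did not overlap between protocols. The core protein Uqcrc2 (0.74 ± 0.29) missed the threshold. None of the 5 small subunits Uqcrb, Uqcrq, Uqcrh, Uqcr10 and Uqcr11 passed it; their estimates ran from 0.39 to 0.69, and 1 of them had an unadjusted p under 0.05. With the replicate number as a block Uqcrq, Uqcr10 and Uqcr11 passed (edgeR adjusted p = 0.00823, 0.0172 and 0.0355), as did Uqcrc2 (0.0063). Uqcr11 had opposite signs within the replicate numbers, -0.30 in replicate 1 and 1.14 in replicate 2, and its libraries overlapped between protocols.

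In ATP synthase 4 of 5 subunits of the catalytic head and central stalk rose, as did the 3 genes of the c ring and the 4 of the peripheral stalk, some of them by calls that other settings did not keep. Of the 5 genes of the F1 head and central stalk, Atp5a1, Atp5b, Atp5c1 and Atp5d rose and Atp5e, the epsilon subunit, missed the threshold (0.83 ± 0.28, edgeR adjusted p = 0.0591). It passed with the replicate block (edgeR adjusted p = 0.00325), without the filter on low counts (0.00702) and with DESeq2 (0.029). Atp5d, the delta subunit, had 814 and 802 CPM in standard 5′ libraries, against 272 and 361 CPM in 3′ libraries (log2 fold change 1.35 ± 0.21, edgeR adjusted p = 0.00366). Among the peripheral stalk genes Atp5o, which encodes the oligomycin sensitivity conferring protein, had the largest difference. Atp5o had 360 and 293 CPM in standard 5′ libraries, against 40.8 and 26.0 CPM in 3′ libraries (log2 fold change 3.29 ± 0.27, edgeR adjusted p = 0.000349). Its main annotated gene lies at chr16:91925214-91931687 on the minus strand. The stalk genes Atp5f1 and Atp5j passed narrowly (edgeR adjusted p = 0.0493 and 0.0447). Their calls held in 3 and 4 of 13 alternatives and were lost with DESeq2 size factors (0.0532 and 0.0516), with plain totals (0.434 and 0.305) and without either standard 5′ library. Of the 5 small membrane subunits only Atp5mpl rose (0.89 ± 0.28), and Atp5md, also called DAPIT (0.08 ± 0.25), and Atp5l (0.02 ± 0.26) had estimates near 0 whose signs turned under other totals. Atp5k (0.75 ± 0.32) and Atp5j2 (0.68 ± 0.26) missed the threshold and passed it with the replicate block (edgeR adjusted p = 0.0133 and 0.0126).

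The count of 19 was 28 with the replicate block, and it rested partly on single libraries: it was 12 without 3′ replicate 1 and 6 without standard 5′ replicate 2, when Cox6a1 and Cox5b missed the threshold (edgeR adjusted p = 0.107 and 0.161) and Cox4i1, Atp5o, Atp5g3, Atp5d, Uqcrc1 and Uqcrfs1 passed it. With plain totals 8 members rose and 0 fell, while the median was 0.36 over the members and -0.39 over all genes; the share of higher genes among all called genes was then 17.4%, against 53.7% with TMM.

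**Figure D2:**
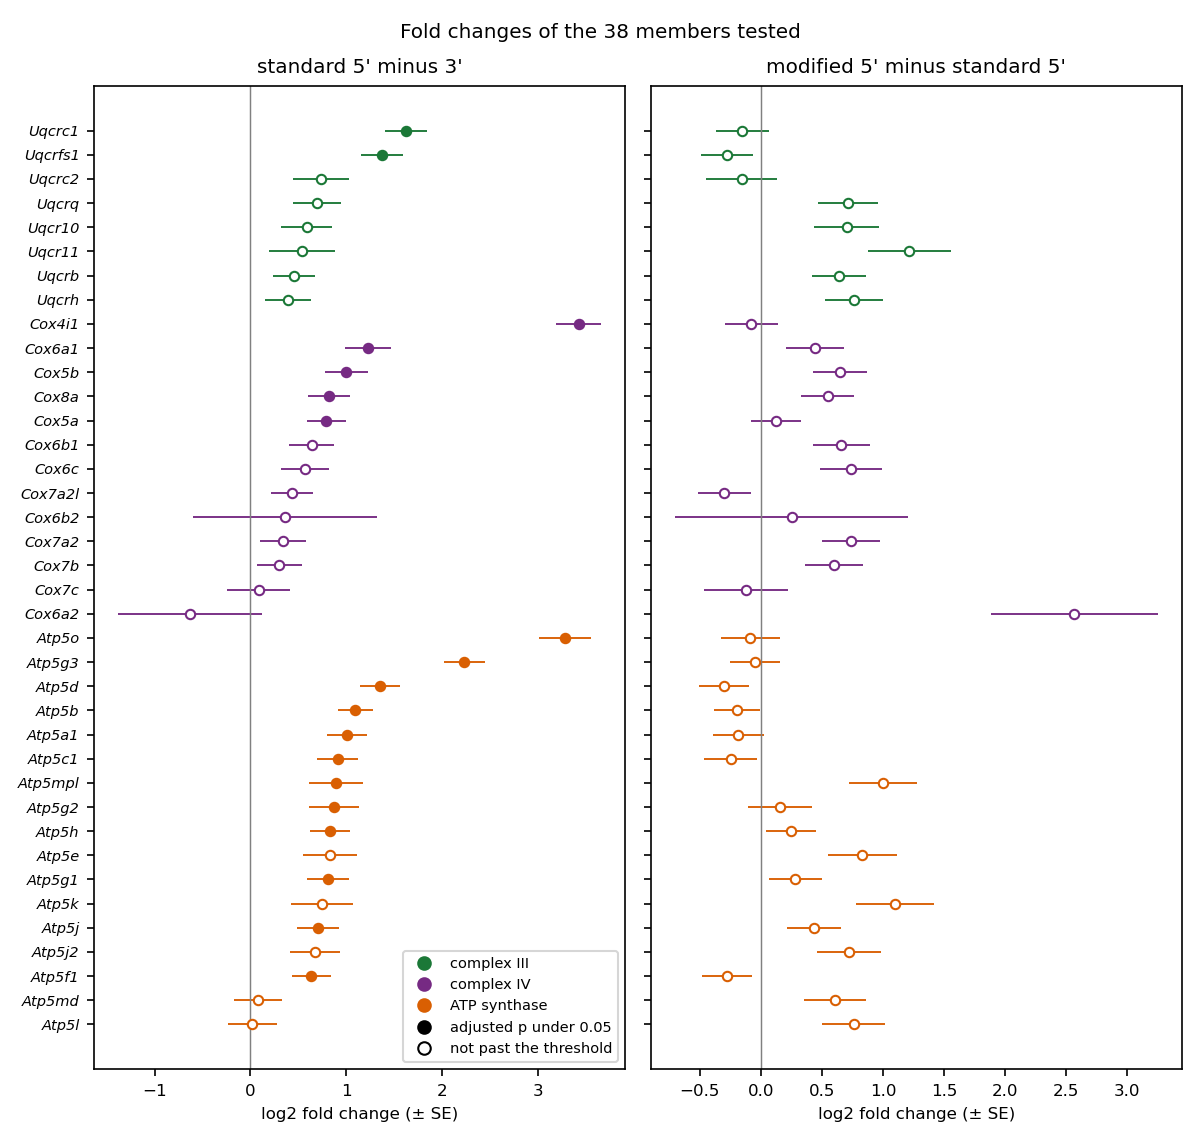
Log2 fold change with its standard error for each of the 38 members tested, grouped by complex and ordered by the standard 5′ against 3′ value. Left, standard 5′ minus 3′; right, modified 5′ minus standard 5′; filled points passed an adjusted p of 0.05. On the left Cox4i1, Atp5o and Atp5g3 lie farthest right; on the right no point is filled, and Uqcr11, Atp5k and Atp5mpl lie right of 0.

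The 3 genes of the c ring, the rotor of ATP synthase, encode the same mature protein behind different targeting peptides. Their shares of the counts are given by protocol. These shares differed between protocols, so they do not show how much transcript each gene supplied. Atp5g3 had 802 and 890 CPM in standard 5′ libraries, against 155 and 205 CPM in 3′ libraries (log2 fold change 2.23 ± 0.21, edgeR adjusted p = 0.000834). Atp5g1 (0.81 ± 0.22) and Atp5g2 (0.87 ± 0.26) rose too, by less, and their calls held in 8 and 2 of 13 alternatives. With the DESeq2 test their adjusted p-values were 0.053 and 0.202. Among the counts of the trio, Atp5g3 held 82.8% (95% exact binomial interval 80.4% to 85.0%) and 83.5% (81.7% to 85.1%) in the modified 5′ libraries. It held 86.7% (82.3% to 90.3%) and 85.6% (83.9% to 87.2%) in the standard 5′ libraries and 67.7% (63.2% to 71.9%) and 71.2% (68.1% to 74.3%) in the 3′ libraries. Atp5g1 made up 13.6% and 12.6% in modified 5′, 9.97% and 11.1% in standard 5′, and 24.3% and 22.5% in 3′ libraries. Atp5g3 was thus the most counted of the trio in all 6 libraries, and its share was lower in both 3′ libraries than in the other 4. The intervals cover counting error only. Every 31-base stretch of Atp5g2 and 67.3% of those of Atp5g1 also occur in other genes, against 0% for Atp5g3.

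The isoforms known from heart, skeletal muscle, lung or testis were rare. Cox4i2, the form of Cox4 known from lung, had 0 counts in 4 libraries and 1 and 2 counts in the modified 5′ libraries, where Cox4i1 had 1370 and 2487. Cox8b had 1 count and Cox7a1 15 counts over all kept cells. On plain library totals, a count of 0 allowed a level of up to 8.20 CPM in standard 5′ replicate 1. In the 3 other libraries without Cox4i2 it allowed 1.21 to 1.72 CPM. Cox6b2, the testis form, had 13 and 10 counts in modified 5′, 5 and 7 in standard 5′ and 19 and 5 in 3′ libraries, and its groups overlapped in CPM. Cox6a2, the muscle form, had 16.6 and 11.7 CPM in modified 5′ libraries, 0 and 2.82 CPM in standard 5′ libraries and 2.98 and 4.05 CPM in 3′ libraries. It was called in 1 comparison, modified 5′ against 3′ (log2 fold change 1.94 ± 0.53), on 18 and 23 counts in modified 5′ libraries against 6 and 12 in 3′ libraries. That call held in 6 of 12 alternatives; it was lost with all barcodes, with plain totals and without any 1 of these 4 libraries (edgeR adjusted p = 0.056 to 0.208). Its share of Cox6a counts was at most 3.19% in any library.

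**Figure D3:**
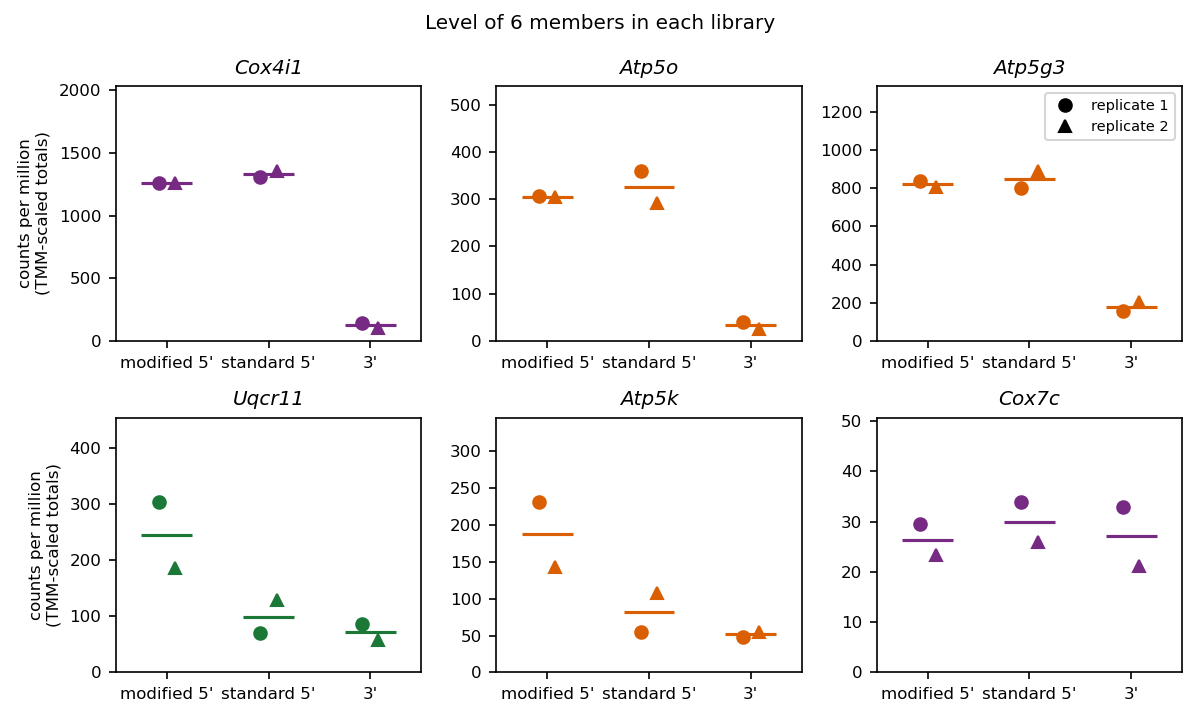
Level of Cox4i1, Atp5o, Atp5g3, Uqcr11, Atp5k and Cox7c in each library, in CPM on TMM-scaled totals, with a separate axis for each gene. Circles are replicate 1, triangles replicate 2, and lines group means. The upper genes are low in both 3′ libraries; Uqcr11 and Atp5k are highest in both modified 5′ libraries; Cox7c overlaps between protocols.

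The second comparison asks what added dNTP and longer extension do within the 5′ kit. No member passed the adjusted threshold: 0 of 38 by edgeR and 0 by DESeq2, with 0% of 11546 genes called by edgeR. At an unadjusted p under 0.05 edgeR counted 18 members, all higher in the modified libraries. The share of all genes at that unadjusted level was not counted, here or in the gated cells below. The median log2 difference was 0.44 over the members and -0.01 over all genes. By role, all 5 small subunits of complex III and all 5 small membrane subunits of ATP synthase had an unadjusted p under 0.05 and a positive estimate. None of the 3 core and Rieske subunits, 3 c ring genes or 4 peripheral stalk genes did. Without the share of all genes, and with no gene past the adjusted threshold, this split by role is only a description.

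Uqcr11, the smallest complex III subunit, had 302 and 186 CPM in modified 5′ libraries, against 70.7 and 128 CPM in standard 5′ libraries (log2 difference 1.22 ± 0.34, edgeR unadjusted p = 0.0053, adjusted p = 0.996). Both modified libraries lay above both standard ones, but the difference was 2.08 within replicate 1 and 0.54 within replicate 2. Atp5k, the membrane subunit e of ATP synthase, had 231 and 144 CPM in modified 5′ libraries, against 55.3 and 107 CPM in standard 5′ libraries (log2 difference 1.10 ± 0.32). Within replicates 1 and 2 its differences were 2.04 and 0.42. Atp5mpl, another small membrane subunit, had 457 and 260 CPM in modified 5′ libraries, against 160 and 194 CPM in standard 5′ libraries (1.00 ± 0.28). The replicate 1 difference, which rests on the shallow standard library, was the larger one for these 3 genes. The same held for every other member at an unadjusted p under 0.05. Within replicates 1 and 2 the differences were 1.43 and 0.22 for Atp5e, and 0.80 and 0.28 for Cox8a. Atp5e, Uqcrh, Atp5l, Cox6c, Cox7a2, Uqcrq and Cox8a had log2 differences of 0.83, 0.76, 0.76, 0.74, 0.74, 0.71 and 0.55, none past the adjusted threshold.

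The genes with the greatest 5′ to 3′ differences had estimates close to 0 here. Cox4i1 stood at 1264 and 1263 CPM in modified 5′ libraries and at 1306 and 1356 CPM in standard 5′ libraries (log2 difference -0.08 ± 0.22). Atp5o (-0.08 ± 0.24) and Atp5g3 (-0.05 ± 0.20) overlapped between these protocols. Atp5d (-0.30 ± 0.20), Atp5f1 (-0.28 ± 0.20), Uqcrfs1 (-0.28 ± 0.21) and Cox7a2l (-0.30 ± 0.22) had the lowest estimates, with every modified library below both standard ones and unadjusted p-values over 0.05. Cox6a2 had the highest estimate, 2.57 ± 0.68, on 0 and 5 counts in the standard libraries.

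Against the 3′ libraries the modified 5′ libraries had 30 of 38 members higher and 0 lower, with 10.2% of 11546 genes higher and 8.19% lower. This comparison shares the 3′ libraries with the first and the modified libraries with the second, so the 3 are not independent. The median was 1.13 over the members and -0.02 over all genes, and 7 of 8 complex III, 10 of 13 complex IV and 13 of 17 ATP synthase members rose. The small subunits of complex III that missed the threshold for standard 5′ all passed it here: Uqcrb, Uqcrh, Uqcr10, Uqcrq and Uqcr11 had log2 fold changes of 1.10, 1.15, 1.29, 1.41 and 1.76 in the modified libraries against 3′, beside 0.46, 0.39, 0.59, 0.69 and 0.54 in the standard libraries against 3′. The ATP synthase subunits e and epsilon did too, Atp5k with 1.84 and Atp5e with 1.66, beside 0.75 and 0.83. In the other direction, Atp5c1, the gamma subunit, and Atp5f1, subunit b of the stalk, were called for standard 5′ alone, at 0.91 and 0.64, beside 0.67 and 0.36; with the replicate block Atp5c1 passed here as well (edgeR adjusted p = 0.00666).
Uqcr11 had 302 and 186 CPM in modified 5′ libraries, against 87.0 and 57.7 CPM in 3′ libraries (1.76 ± 0.33, edgeR adjusted p = 0.00974). Uqcrc1 had 190 and 223 CPM in modified 5′ libraries, against 69.6 and 79.2 CPM in 3′ libraries (1.47 ± 0.22). Uqcrq, another small subunit, had 332 and 242 CPM in modified 5′ libraries, against 118 and 98.1 CPM in 3′ libraries (1.41 ± 0.24). All 3 were named on condition that every modified library lay above every 3′ library.
In complex IV, Cox4i1 led again (3.35 ± 0.24), followed by Cox6a1 with 504 and 464 CPM in modified 5′ libraries, against 181 and 123 CPM in 3′ libraries (1.67 ± 0.24), and by Cox5b with 594 and 466 CPM in modified 5′ libraries, against 171 and 165 CPM in 3′ libraries (1.65 ± 0.22). In ATP synthase, Atp5o had 306 and 305 CPM in modified 5′ libraries, against 40.8 and 26.0 CPM in 3′ libraries (3.20 ± 0.27). Atp5g3 had 836 and 805 CPM in modified 5′ libraries, against 155 and 205 CPM in 3′ libraries (2.19 ± 0.21). Atp5mpl had 457 and 260 CPM in modified 5′ libraries, against 103 and 89.7 CPM in 3′ libraries (1.89 ± 0.28). All of these were named on condition that the groups did not overlap. Cox7c (-0.04 ± 0.31) and Cox7a2l (0.14 ± 0.22) overlapped between the groups and were not called. The count of 30 was 8 without modified 5′ replicate 1, when Atp5e, Atp5k and the 5 small complex III subunits missed the threshold, Uqcr11 with an edgeR adjusted p of 0.0757. With plain totals it was 24.

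Coding length describes how the members divided. Across the 38 members tested, Spearman's rho between coding length and log2 fold change was 0.59 for standard 5′ against 3′ and -0.76 for modified against standard 5′. Over 10430 protein-coding genes the same values were -0.41 and 0.13. With transcript length in place of coding length, they were 0.37 and -0.68 for the members and -0.50 and 0.19 for all genes. These are descriptions across genes that share libraries, without a test, and both comparisons use the standard 5′ libraries. In modified against standard 5′ libraries, 21 of 23 members with at most 400 nt of coding sequence had a positive estimate, with a median of 0.70, against a median of 0.11 over 595 genes of that length. The 4 members over 1000 nt, Atp5a1, Atp5b, Uqcrc1 and Uqcrc2, all had negative estimates (median -0.17, against -0.01 over 5504 genes from 1000 to 3000 nt). By whole transcript, the 17 members up to 600 nt had a median of 0.70 and all 168 genes of that length one of 0.53. In standard 5′ against 3′ libraries the short members lay near other short genes, with a median of 0.57 for the 23 members and 0.57 for all 595 genes up to 400 nt. The 4 long members had a median of 1.05 there, against -0.07 over all genes of that coding length. The contrast was smaller by whole transcript. The 9 members from 1000 to 3000 nt, which include these 4, had a median of 0.91, against 0.41 over 4887 genes. These length classes were chosen after the values were seen.

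**Figure D4:**
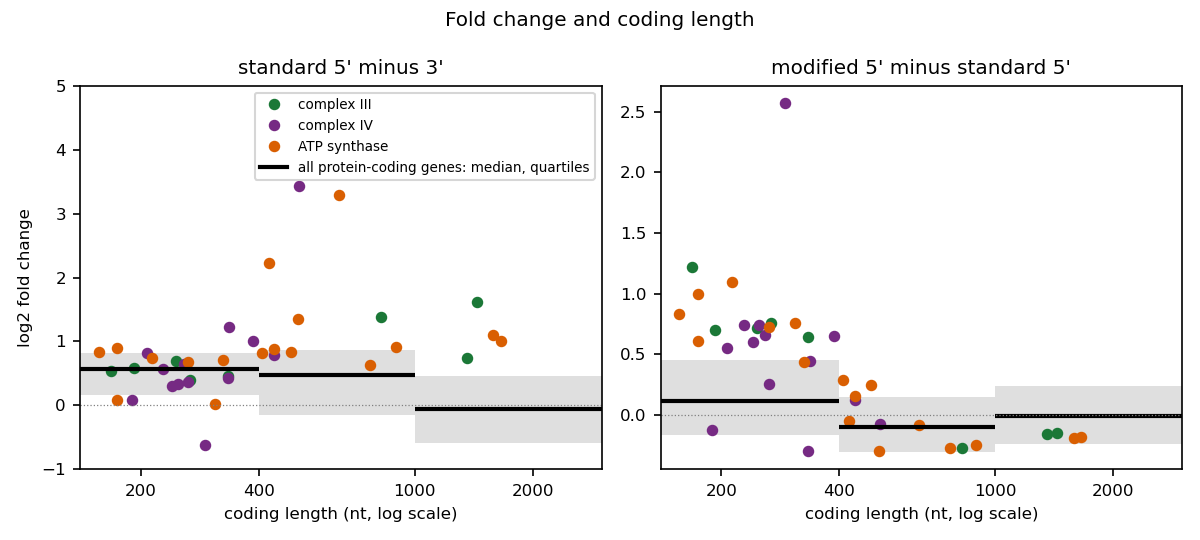
Log2 fold change of the 38 members against coding length on a log scale, coloured by complex, for standard 5′ minus 3′ (left) and modified 5′ minus standard 5′ (right). Black lines and grey bands are the median and quartiles of all protein-coding genes tested in 3 length classes. On the left members over 1000 nt lie above the band; on the right 21 of 23 members up to 400 nt lie above 0, and the 4 members over 1000 nt lie below it.

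B and T cells were then gated by raw marker counts, to see whether the protocol differences were found within each class. A gated B cell had at least 2 counts over a set of B cell markers that includes Cd79a, Cd79b and Ms4a1, and none of Cd3d, Cd3e, Cd3g, Trac, Trbc1 and Trbc2; a gated T cell had at least 2 counts of the T cell set and none of the B cell set. The libraries gave 288 to 1153 gated T cells and 355 to 2044 gated B cells, and in these sums Cox6a2 and Cox6b2 also failed the filter. In gated T cells 17 of 36 members tested were higher in standard 5′ than in 3′ libraries and 0 were lower, with 11.7% of 7800 genes higher. In gated B cells 19 of 36 were higher and 0 lower, with 13.9% of 9284 genes higher. Both gates come from the same libraries, so the members' values are set side by side. Cox4i1 had a log2 fold change of 3.42 ± 0.27 in T cells and 3.17 ± 0.27 in B cells. Atp5o had 3.03 ± 0.28 in T cells and 3.29 ± 0.29 in B cells, and Atp5g3 had 2.02 ± 0.25 in T cells and 2.24 ± 0.26 in B cells. Without standard 5′ replicate 2 the counts were 3 in T cells and 6 in B cells, and with plain totals 10 and 9.

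For modified against standard 5′, no member was called in gated T cells (0 of 36 by edgeR, with 16 at an unadjusted p under 0.05 and 0.0256% of all genes called). In gated B cells 1 of 36 was called, with 0.151% of all genes higher, 0.0431% lower and 18 members at an unadjusted p under 0.05. It was Uqcr11, which had 337 and 195 CPM in modified 5′ B cells, against 51.8 and 126 CPM in standard 5′ B cells (log2 fold change 1.31 ± 0.27, edgeR adjusted p = 0.00937). The call was lost with the replicate number as a block (edgeR adjusted p = 0.0583, 0 of 36 called), without standard 5′ replicate 1 (0.571) and without modified 5′ replicate 1 (1.00). In gated T cells Uqcr11 had a log2 difference of 1.03 ± 0.31 (edgeR adjusted p = 0.517).

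The members held a slightly larger share of the counts in gated T cells than in gated B cells of the same library. The members together summed to 17129 and 15680 CPM in T cells, against 15773 and 13003 CPM in B cells, of the modified 5′ libraries. In the standard 5′ libraries they summed to 13138 and 14488 CPM in T cells, against 10865 and 12115 CPM in B cells, and in the 3′ libraries to 8839 and 8851 CPM in T cells, against 7615 and 7495 CPM in B cells. T cells were higher in all 6 libraries, by 0.12 to 0.27 on the log2 scale with plain totals and by 0.05 to 0.19 with TMM. By complex the direction was the same in each library with 1 exception: with TMM, complex IV in modified 5′ replicate 1 had a T minus B difference of -0.029, against 0.044 with plain totals. With the library as a block, edgeR called 10 of 36 members (27.8%) higher in T cells and 0 lower. Of 7433 genes, 19.7% were higher and 21.7% lower, so the share of higher members lay not far above that of all genes. In either direction members were called less often than all genes, at 27.8% against 41.4%. The median log2 difference was 0.09 over the members and -0.03 over all genes.

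Cox7a2l had the largest T minus B difference among the members. It averaged 729 ± 74.1 CPM in T cells and 481 ± 68.8 CPM in B cells (SD, n = 6 libraries each; log2 fold change 0.60 ± 0.06 SE, edgeR adjusted p = 1.79e-12). The difference lay between 0.46 and 0.71 in the 6 libraries. Cox7a2l, Cox7b, Atp5h, Atp5j2, Atp5g3 and Uqcrh were named on condition that the difference had the same sign in all 6 libraries. Cox7a2l was also one of the members with no called protocol difference. Cox7b, the other complex IV gene called, averaged 271 ± 79.8 CPM in T cells and 227 ± 82.3 CPM in B cells (0.21 ± 0.08, edgeR adjusted p = 0.0221), higher in T in 6 of 6 libraries. Its call held in 7 of 11 alternatives, and that of Cox7a2l in 11 of 11.

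Atp5h, the d subunit of the peripheral stalk, averaged 626 ± 200 CPM in T cells and 410 ± 138 CPM in B cells (0.55 ± 0.07, edgeR adjusted p = 4.35e-10). Its library differences ran from 0.24 to 1.15, all positive; 60.8% of its 31-base stretches recur in other genes. Atp5j2, the membrane subunit f, averaged 413 ± 195 CPM in T cells and 316 ± 152 CPM in B cells (0.33 ± 0.07), and Atp5g3 averaged 708 ± 362 CPM in T cells and 594 ± 322 CPM in B cells (0.30 ± 0.07). The wide SDs include the protocol differences above; within each library T was above B for both genes. Atp5md (0.30), Atp5mpl (0.23) and Atp5j (0.23) were also called, so 6 of 17 ATP synthase genes were higher in T cells. Of these, 3 were small membrane subunits and none came from the F1 head. The calls of Atp5md and Atp5mpl held in 8 of 11 alternatives each and were lost without standard 5′ replicate 2. Those of Atp5h, Atp5j2, Atp5g3 and Atp5j held in 10 of 11 each. In complex III, Uqcrh, the hinge protein near cytochrome c1, averaged 768 ± 286 CPM in T cells and 645 ± 272 CPM in B cells (0.23 ± 0.06), higher in 6 of 6 libraries. Uqcr10 was called as well (0.37 ± 0.09) and was higher in 5 of 6. The lowest estimates were those of Cox7c (-0.45 ± 0.21, edgeR adjusted p = 0.0765) and Uqcr11 (-0.21 ± 0.10), and Cox4i1 had 0.08 ± 0.07.

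**Figure D5:**
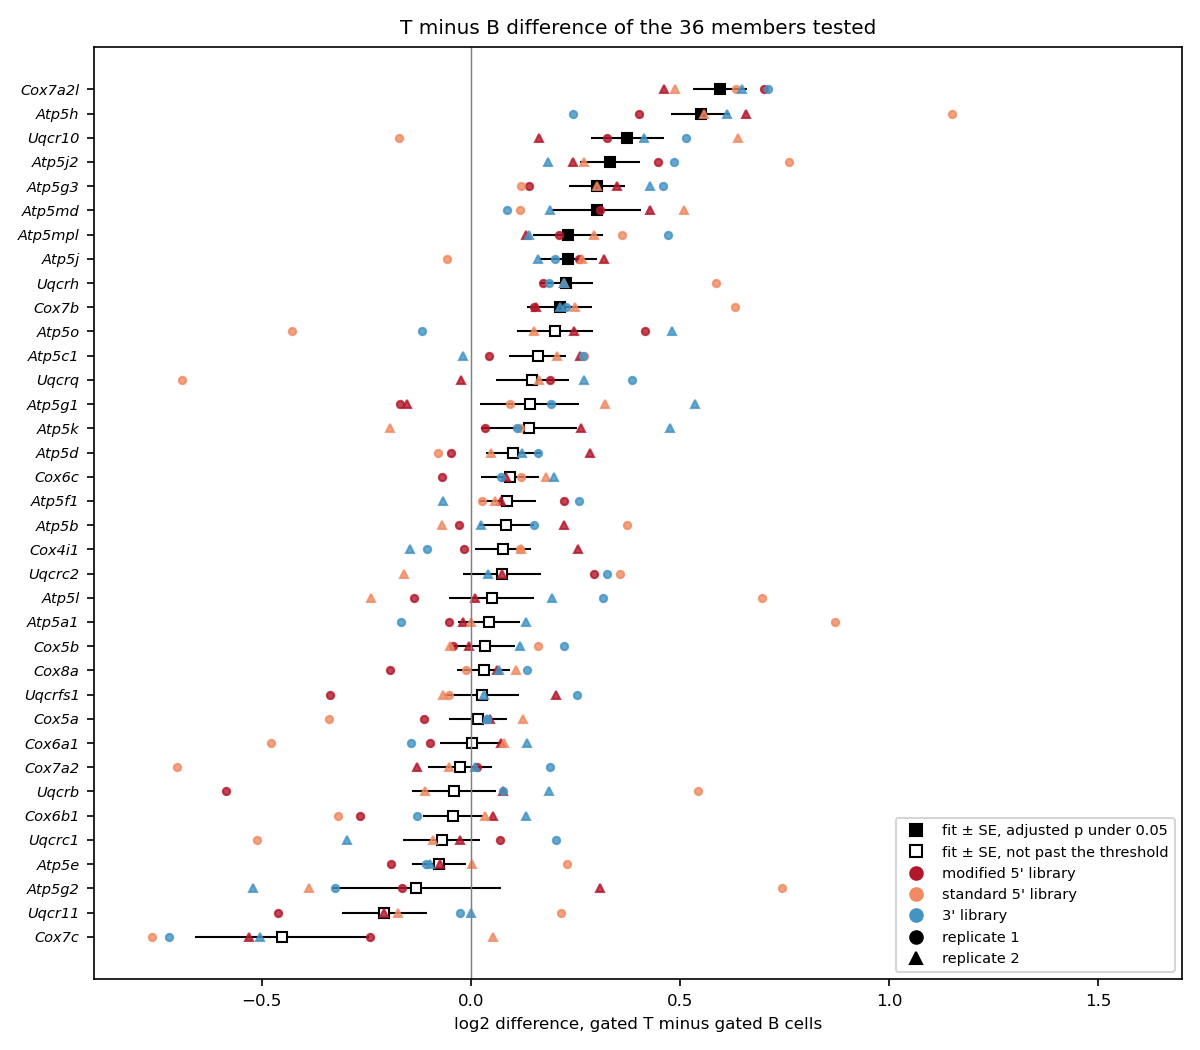
Log2 difference between gated T and gated B cells for the 36 members tested, ordered by the fitted value. Squares with bars are fitted values with standard errors, filled where the adjusted p was under 0.05, and coloured points are the 6 libraries. The 10 filled squares all lie right of 0, and the Cox7a2l points lie between 0.46 and 0.71.

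The count of 10 was 18 with plain totals and 1 without the library block. Both gated classes held counts of genes that were listed as markers of other cells. Plasma cell markers summed to 11.5 to 30.4 CPM in gated T and to 844 to 3777 CPM in gated B cells. Natural killer markers summed to 321 to 686 CPM in gated T and 0 to 41.9 CPM in gated B cells. Myeloid markers summed to 157 to 285 CPM in gated T and 304 to 776 CPM in gated B cells. In the replicate 1 libraries erythroid markers summed to 3286 to 14546 CPM in gated T and 7242 to 9314 CPM in gated B cells. In the replicate 2 libraries they summed to 40.0 to 850 CPM in gated T and 427 to 574 CPM in gated B cells. Sdc1, a defining plasma cell marker, was at 0 in the gated T cells of all 6 libraries, and all 4 plasma markers had counts in the gated B cells of each. Which cells gave these counts, and their part in the T minus B differences, was not tested. Whether the T minus B difference itself changed with the protocol was tested by an interaction term. By edgeR it passed for 0 of 36 members between standard 5′ and 3′ libraries (0.135% of 7433 genes, 0.0673% in each direction) and for 0 of 36 between modified and standard 5′ libraries (0% of all genes), with 0 members at an unadjusted p under 0.05 in either.

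Other genes of the pathway came from fixed lists, and their counts stand beside the background given above for standard 5′ against 3′, 12.5% of all genes higher and 10.8% lower. Among 4 partner genes (Cyc1, Cycs, Ndufa4 and Atpif1), 1 rose in standard 5′ against 3′ libraries: Cyc1, the cytochrome c1 of complex III (log2 fold change 1.40 ± 0.22). Of 6 complex II genes 3 rose and 0 fell, namely the assembly factor Sdhaf1 (2.54 ± 0.41), the iron-sulphur subunit Sdhb (1.35 ± 0.23) and the membrane anchor Sdhd (0.98 ± 0.24). Of 24 genes tested from the list for complex IV assembly 6 rose and 1 fell. Those that rose include Cox20 (1.30 ± 0.30), Coa3 (1.02 ± 0.22) and Fastk (1.19 ± 0.35), whose place on that list is doubtful. Sco2, a copper chaperone, fell by 2.28 on the log2 scale. Of 6 complex III assembly genes Bcs1l (1.80 ± 0.41), which inserts the Rieske protein, and Uqcc2 (0.83 ± 0.23) rose, and of 4 ATP synthase assembly genes Tmem70 rose (0.89 ± 0.26). Of the 5 subunits of these assemblies tested that mitochondrial DNA encodes, 0 rose and 2 fell, mt-Atp6 (-2.43 ± 0.45) and mt-Co2 (-1.93 ± 0.44). The other three, mt-Co3 (-1.01 ± 0.39), mt-Cytb (-0.03 ± 0.21) and mt-Co1 (0.11 ± 0.20), did not pass the threshold. In modified 5′ against 3′ libraries mt-Atp6 (-2.21 ± 0.39) and mt-Co3 (-1.63 ± 0.38) fell. The mt-Atp6 call was lost without modified 5′ replicate 2 (edgeR adjusted p = 0.0776), and the mt-Co3 call without any 1 of these 4 libraries (0.0528 to 0.156). Without standard 5′ replicate 2, Cyc1 was the only 1 of the 16 list genes called in standard 5′ against 3′ that passed, and without 3′ replicate 1 it was 5 of 16. Of the 19 list genes called in modified 5′ against 3′, 2 passed without modified 5′ replicate 1, 9 without modified 5′ replicate 2 and 9 without 3′ replicate 1. No gene of these 6 lists was called between modified and standard 5′ libraries by edgeR.

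Between gated T and gated B cells the same lists held calls in both directions, as did all genes tested (19.7% higher and 21.7% lower). Of 20 complex IV assembly genes tested 5 were higher in T cells and 1 lower; the higher share is near that background. They include Cmc1, an assembly factor of the Cox1 module, at 1.78 ± 0.16, and Cox10, which makes haem O for the oxidase, at 0.98 ± 0.26. The lower one was Cox17 (-0.22 ± 0.09). Both mitochondrially encoded genes tested were lower in T cells, mt-Cytb (-0.37 ± 0.05) and mt-Co1 (-0.15 ± 0.05). Atpif1, the inhibitor of ATP synthase, was lower (-0.59 ± 0.11) and Ndufa4, a subunit now counted to complex IV, higher (0.20 ± 0.07). Sdhaf2, which helps attach FAD to complex II, was lower (-0.75 ± 0.14), Sdhb higher (0.23 ± 0.09), and the assembly factor Fmc1 lower (-0.45 ± 0.14). Of 3 complex III assembly genes tested, 0 were called by edgeR. Of these 13 calls 8 held without modified 5′ replicate 2, the fewest when 1 library was left out, and 3 without the library block.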

How the data were processed

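Counts per gene and cell barcode were used as deposited by the authors. Per the submitters' processing notes they were made on mm10, and Seurat is named for replicate 2; the sources used here do not name the aligner, annotation, strand setting, cell calling or UMI handling. Barcodes with 200 or more genes and up to 20% mitochondrial counts were summed per library, and again for gated T and gated B cells, where cells with both marker sets were dropped; no doublet caller was run. The B cell gate also used a marker that is not reported here. No libraries were pooled or dropped. Total counts per library ran from 723341 to 2627253, and intervals and limits from a count of 0 (3 counts) cover counting error only.

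The sums were tested with edgeR 4.0.16 (R 4.3.3; TMM, filterByExpr, quasi-likelihood test, Benjamini-Hochberg over all genes tested, threshold 0.05) in 1 fit of the 6 libraries by protocol. T against B used 12 sums with the library as a block, and an interaction term tested the difference between protocols. The SE is the log2 fold change divided by the square root of F. Same-numbered libraries came with the same preparation text, and their deviations correlated by 0.456 (3′ and standard 5′), 0.391 (3′ and modified 5′) and 0.241 (both 5′ protocols) over 11546 genes, so a replicate block was an alternative. DESeq2 1.42.0, other scalings and filters, all barcodes, a gate of 3 counts and leaving out each library were the others. The script was tested on simulated data. Members and lists were chosen with earlier results of these data known. Named genes were, for each comparison, up to 3 per complex with the largest change among called members with a mean of at least 20 CPM. Every library of one protocol also had to lie above every library of the other, or T against B to have the same sign in all 6 libraries. The separation of these genes' libraries therefore follows from the choice. Uqcr11, Atp5k, Cox7c, Cox7a2l, the isoforms and further members were named for their role or after their values were seen. Lengths and shared 31-base stretches are from GENCODE M21, and promoters from RefSeq. Python 3.11.15 with pandas 2.3.3, scipy 1.17.1 and matplotlib 3.10.9 did the rest.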

Additional observations from a re-analysis of the deposited data

Results flagged for a closer look

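In 2 of the 10 members called between gated T and gated B cells, 1 library lay far from the other 5, and chance gives such a library in about 1 of 20 sets. Uqcrh, the hinge protein of complex III, had a T minus B log2 difference of 0.59 in standard 5′ replicate 1, against 0.17 to 0.22 in the other libraries. Cox7b, a small subunit of complex IV, had 0.63 in the same library, against 0.15 to 0.25 in the others. That library had the fewest gated cells, 288 T and 355 B cells. All 6 libraries had T above B for both genes, and the part of depth in the difference was not tested.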

How the results depend on the processing

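Leaving out each library in turn gave 6 to 16 for standard 5′ against 3′ (19 with all), 8 to 31 for modified 5′ against 3′ (30), 6 to 23 and 3 to 16 for standard 5′ against 3′ in gated B (19) and gated T cells (17), 0 to 4 and 0 to 2 for modified against standard 5′ in gated B and gated T cells, and 8 to 13 for T against B (10). Plain totals, chosen after seeing the data, gave 8 for standard 5′ against 3′, 9 and 10 in gated B and T cells, and 18 for T against B, which was 1 without the library block. Modified against standard 5′ had 3 members without the low-count filter; in gated B cells it had 0 with a gate of 3 counts and 0 with the replicate block. That block changed no other count by over 1.5 times, giving 28 and 34 for standard and modified 5′ against 3′. With TMM-scaled totals the summed complexes III and IV and ATP synthase differed by 0.72, 1.05 and 1.06 (standard 5′ against 3′) and 1.22, 1.37 and 1.22 (modified 5′ against 3′). Signs that turned belonged to members that were not called, except Atp5k. For standard 5′ against 3′, Atp5l was -0.36 with plain totals, -0.047 without haemoglobin genes, -0.00095 with DESeq2 size factors and -0.22 to 0.24 with libraries left out. Cox7c was -0.29 with plain totals, -0.037 with all barcodes and -0.19 to 0.42; Atp5md was -0.31 and -0.027 under those settings; Uqcr11 ran from -0.012 to 0.87, and plain totals gave -0.049 for Cox7a2 and -0.085 for Cox7b. For modified 5′ against 3′, plain totals gave -0.22 for Cox7a2l and -0.00075 for Atp5f1, and left-out libraries -0.058 to 0.34 for Cox7a2l and -0.31 to 0.30 for Cox7c. For modified against standard 5′ they gave -0.12 to 0.036 for Atp5g3 and -0.23 to 0.060 for Atp5o. Atp5k in gated B cells, standard 5′ against 3′, ran from -0.28 to 1.31. The cause was not tested for any of these. Where 1 library was left, its spread was assumed to equal that of the other groups. Depth limits the values of the rare isoforms, which rest on few counts.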
